A study of Mus musculus with 12 samples.

Results

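The genotype by CCl4 interaction asks, for each gene, whether the liver changed by a different amount after CCl4 in Lcn2-/- mice than in wild type mice. It is the response of the Lcn2-/- liver, CCl4 minus oil, less the response of the wild type liver, CCl4 minus oil. All 12 RNA-seq libraries of the series entered it, 3 in each of 4 groups, and the genes are the 15194 that both tables of the CCl4 response list, of 16292 in either table. RNA came from whole liver of female C57BL/6 mice, either wild type or Lcn2-/-, a null of lipocalin 2 in the whole body and not in a chosen cell type. Injections into the peritoneum began at 8 weeks of age and were given 2 times per week for 8 weeks, and the mice were killed 48 h after the last. Control mice of both genotypes received mineral oil, and the CCl4 mice of both genotypes received 0.8 ml/kg CCl4 in mineral oil, so every group carried the oil and no group was left uninjected.

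Lipocalin 2 is a secreted protein that binds bacterial siderophores, the small molecules with which bacteria take up iron, and it is stored in neutrophil granules and made by stressed hepatocytes. CCl4 is turned into a reactive radical by *Cyp2e1* in the hepatocytes around the central vein, and repeated doses give cycles of cell death, repair and scarring. Mineral oil is the usual carrier, but oil in the peritoneum is itself known to draw in myeloid cells, and cytokines that reach the hepatocytes raise the acute-phase proteins and lower many enzymes of drug, bile acid and nitrogen metabolism.

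The targeted gene followed the labels. On oil, *Lcn2* was at 345, 739 and 1045 CPM in the wild type and 7.74, 3.44 and 4.21 CPM in the Lcn2-/- livers. On CCl4, *Lcn2* was at 557, 424 and 405 CPM in the wild type and 16.7, 14.6 and 4.63 CPM in the Lcn2-/- livers. The lowest wild type library thus stood far above the highest Lcn2-/- library. The difference between the CCl4 responses of *Lcn2*, 1.47 (standard error 0.55, adjusted p = 0.198, limma), did not pass the test. A second check went against the labels in 1 library. *Xist*, the transcript that silences an X chromosome in female cells, was at 0.805 CPM in Lcn2-/- CCl4 replicate 2 and at 108 to 219 CPM in the other 11, although every sample is labelled female. The counts of calls, over all genes and in each list with a call, are therefore also given without this library, and what it is was not tested. The labels number the replicates but do not say that each is a separate mouse, so the p-values reflect variation between libraries that could partly be technical. Libraries held 7582962 to 14591487 reads in genes, and 3 reads equalled 0.206 to 0.396 CPM, the reads of a gene scaled to a fixed total of reads in genes per library. In whole liver, fewer cells of a type and less RNA per cell cannot be told apart.

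Expression was compared as log2(CPM + 1), a scale on which the changes of low genes are understated. A response below is the mean on CCl4 less the mean on oil on this scale, and a difference is the Lcn2-/- response less the wild type response. A gene was called when its difference exceeded 0.56 in either direction (1.47-fold) and limma gave a p, adjusted after Benjamini and Hochberg, no higher than 0.05. Of the 15194 genes, 289 were called, which is 1.9%. The difference was positive for 165 genes (1.09%) and negative for 124 genes (0.816%). At an unadjusted p under 0.05, 1480 genes (9.74%) were positive and 789 (5.19%) negative. The split depends on the scaling of the libraries. With DESeq2 size factors 138 genes were higher and 200 lower, and with TMM factors 134 and 210, so the positive share of the calls fell from 57.1% to 40.8% and 39.0%. These factors also moved the median response of all genes from 0.28 to 0.02 in the wild type and from 0.36 to 0.03 in the Lcn2-/- liver with size factors, so a CCl4 response in CPM is to be read against these medians. The median difference of all genes was 0.09, and 0.01 with size factors. It was above 0 for 9011 of the 15194 genes (59.3%), and counts of list members above or below 0 are to be read against this share. Counts of called list members are to be read against the 1.09% of all genes called positive and the 0.816% called negative. No list count was tested against these shares.

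Single libraries moved these counts. Without Lcn2-/- CCl4 replicate 2, the library with little *Xist*, 80 genes were higher and 75 lower. Without wild type CCl4 replicate 2 the counts were 69 and 67, and without wild type CCl4 replicate 3 they were 107 and 86. They were 84 and 73 without wild type oil replicate 2, and 95 and 78 without Lcn2-/- CCl4 replicate 1. Leaving out Lcn2-/- oil replicate 1 gave 97 and 71, and leaving out Lcn2-/- oil replicate 2 gave 86 and 69. The counts were highest, at 295 and 152, without Lcn2-/- CCl4 replicate 3.

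Among the 165 genes with a positive difference, the Lcn2-/- oil group was most often the one that stood apart. The median response was -0.02 in the wild type and 1.31 in the Lcn2-/- liver. Between the genotypes, the median difference of these genes was -1.06 on oil and 0.21 on CCl4. The Lcn2-/- oil group had the lowest mean of the 4 groups for 149 of the 165 genes (90.3%), against 46.4% of all genes tested. The highest mean was that of the Lcn2-/- CCl4 group for 90 genes (54.5%, against 46.2% of all genes) and that of the wild type oil group for 66 (40.0%, against 10.7%). A genotype difference was called on oil for 124 of them, each lower in Lcn2-/-, where 4.73% of all genes were called on oil and 3.63% were lower. On CCl4 it was called for 8, of which 7 were higher in Lcn2-/-, where 0.296% of all genes were called, 0.0921% higher and 0.204% lower. By their responses, 80 rose in the Lcn2-/- liver alone, 39 rose in both genotypes, 20 rose in Lcn2-/- and fell in the wild type, 18 fell in the wild type alone, 2 fell in both and 6 were called in neither. Over all genes tested, 19.9% rose and 3.24% fell in the wild type (23.2% in all), and 30.9% rose and 4.55% fell in Lcn2-/- (35.4% in all).

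The 124 genes with a negative difference stood the other way round. Their median response was 0.09 in the wild type and -0.87 in the Lcn2-/- liver, and their median genotype difference was 0.52 on oil and -0.38 on CCl4. The Lcn2-/- oil group had the highest mean for 98 of them (79.0%), against 13.5% of all genes, and the Lcn2-/- CCl4 group the lowest for 80 (64.5%), against 10.8%. A genotype difference was called on oil for 54, each higher in Lcn2-/- (1.09% of all genes), and on CCl4 for 18, each lower in Lcn2-/-. Of the 124, 69 fell in the Lcn2-/- liver alone, 22 rose in the wild type alone, 11 fell in both genotypes, 6 fell in Lcn2-/- and rose in the wild type, 1 rose in both and 15 were called in neither. These shares describe genes that were called with the same 12 libraries, so they carry no test.

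**Figure D1:**
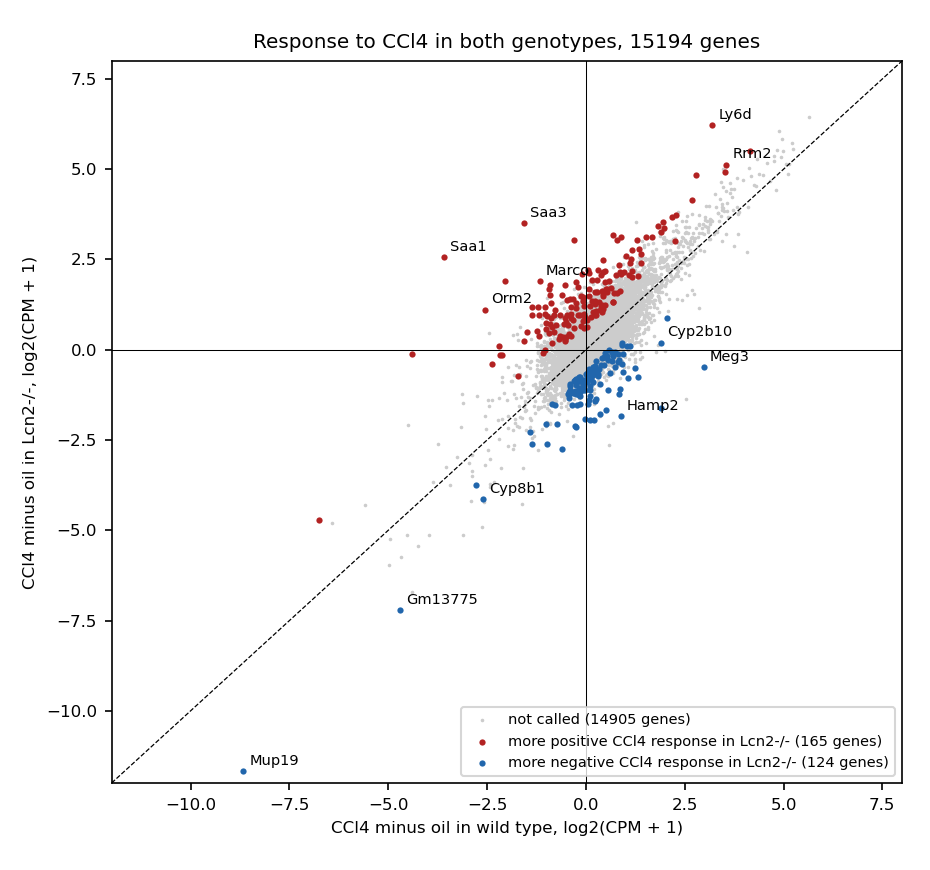
Response to CCl4 in wild type (x axis) against Lcn2-/- liver (y axis), each the mean on CCl4 less the mean on oil in log2(CPM + 1), 1 point per gene for 15194 genes. The 165 red genes lie above the dashed line of equal response and the 124 blue genes below it, and *Saa1*, *Saa3* and *Orm2* lie in the upper left, where a gene fell in the wild type and rose in Lcn2-/-.

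Acute-phase proteins, which the liver secretes in inflammation, were the list with the most positive calls. Of 25 measured genes, 10 were called positive, against 1.09% of all genes, and none negative. All 25 differences were above 0, with a median of 1.10 against 0.09 for all genes. The 25 include the deleted gene *Lcn2*, which was not called. The called genes were *Saa1*, *Saa3*, *Orm1*, *Orm2*, *Hp*, *Hpx*, *Apcs*, *Cp*, *Mt2* and *Steap4*. Their list had a median response of -0.94 in the wild type and 0.45 in Lcn2-/-, a median genotype difference of -1.07 on oil and -0.00 on CCl4. With 1 library left out, 7 to 16 genes were called, 7 without the library with little *Xist* and 16 without wild type oil replicate 1. With size factors or TMM, 7 were called.

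*Saa1*, a serum amyloid A apolipoprotein made by hepatocytes, had the largest difference among genes with a mean of at least 5 CPM. On oil, *Saa1* was at 1049.9, 8462 and 18135 CPM in the wild type and 152, 150.3 and 121 CPM in the Lcn2-/- livers. On CCl4, *Saa1* was at 561, 728 and 224 CPM in the wild type and 318, 499.5 and 3607 CPM in the Lcn2-/- livers. The 3 wild type oil libraries spread widely and lay above all others but Lcn2-/- CCl4 replicate 3, which stood above 1 of them and apart from the other 2 of its group. The response was -3.59 in the wild type and 2.56 in Lcn2-/-, a difference of 6.15 (standard error 1.18, adjusted p = 0.0104, limma). Without Lcn2-/- CCl4 replicate 3 the difference was 5.09. *Saa1* lies on chromosome 7 from 46740497 to 46742980 of GRCm38, and reads can be shared with its near-identical neighbour *Saa2*, which is not in the joined table.

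*Saa3*, a member of the same family that macrophages and other cells outside the hepatocyte also express, had tighter groups. On oil, *Saa3* was at 247, 334 and 235 CPM in the wild type and 11, 9.83 and 11.2 CPM in the Lcn2-/- livers. On CCl4, *Saa3* was at 52.1, 141 and 96.7 CPM in the wild type and 196, 86 and 138 CPM in the Lcn2-/- livers. Lcn2-/- oil was the lowest group and did not overlap any other. The gene fell in the wild type (-1.58) and rose in Lcn2-/- (3.52), a difference of 5.09 (standard error 0.40, adjusted p = 3.1e-06, limma). *Saa3* lies on chromosome 7 from 46711998 to 46715700. *Orm2* encodes orosomucoid 2, an abundant plasma glycoprotein, and its reads can be shared with the copies *Orm1* and *Orm3*. On oil, *Orm2* was at 1002, 2657 and 3821 CPM in the wild type and 127, 173 and 206 CPM in the Lcn2-/- livers. On CCl4, *Orm2* was at 331, 430.3 and 349 CPM in the wild type and 252, 282 and 648 CPM in the Lcn2-/- livers. The wild type oil libraries were above and the Lcn2-/- oil libraries below all the others. The difference was 3.67 (standard error 0.53, adjusted p = 0.00149, limma), and the gene lies on chromosome 4 from 63362449 to 63365878.

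Smaller differences in the list came from genes with levels close together within groups. *Steap4*, a metalloreductase, was at 236 to 373 CPM on oil and 118 to 120.4 CPM on CCl4 in the wild type, and at 73.9 to 96.9 and 96.6 to 144 CPM in the Lcn2-/- livers. It fell in the wild type (-1.23), its response in Lcn2-/- was 0.53 and not called, and the difference was 1.76 (standard error 0.23, adjusted p = 0.000652, limma). *Cp*, which encodes the copper-carrying ferroxidase ceruloplasmin, was at 1123 to 1314 CPM on oil and 1086 to 1214 CPM on CCl4 in the wild type, and at 637 to 735 and 1153 to 1626 CPM in the Lcn2-/- livers. Only the Lcn2-/- oil group stood apart, and the difference was 1.03 (standard error 0.17, adjusted p = 0.00418, limma). The neutrophil markers moved with this list, as given below, and their part in it was not tested.

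The 250 bases before the start sites of the 3 acute-phase genes with the largest differences, and of *S100a8* described next, are shown because the wild type oil group had the highest mean and the Lcn2-/- oil group the lowest in all 4 genes. They are from RefSeq on GRCm38.p6, 5′ to 3′ on the strand of the gene, with matches to TTNNGNAA on either strand, the core of C/EBP sites, in capitals. The start sites are those of RefSeq. By the GENCODE gene positions, the *Saa3* and *S100a8* stretches run past the start and into the gene. *Saa1* is chr7:46742981-46743230 (- strand), *Saa3* is chr7:46715677-46715926 (- strand), *Orm2* is chr4:63362199-63362448 (+ strand) and *S100a8* is chr3:90668821-90669070 (+ strand).
Saa1: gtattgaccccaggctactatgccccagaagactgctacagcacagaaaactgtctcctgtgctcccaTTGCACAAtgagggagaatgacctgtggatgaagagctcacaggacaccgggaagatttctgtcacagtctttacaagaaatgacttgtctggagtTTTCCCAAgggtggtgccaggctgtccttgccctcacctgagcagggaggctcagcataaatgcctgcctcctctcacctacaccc
Saa3: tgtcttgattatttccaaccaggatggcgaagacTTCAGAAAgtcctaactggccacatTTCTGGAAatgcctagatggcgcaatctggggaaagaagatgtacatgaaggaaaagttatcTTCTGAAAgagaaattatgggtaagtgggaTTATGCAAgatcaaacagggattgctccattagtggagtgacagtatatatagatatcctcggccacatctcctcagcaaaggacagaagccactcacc
Orm2: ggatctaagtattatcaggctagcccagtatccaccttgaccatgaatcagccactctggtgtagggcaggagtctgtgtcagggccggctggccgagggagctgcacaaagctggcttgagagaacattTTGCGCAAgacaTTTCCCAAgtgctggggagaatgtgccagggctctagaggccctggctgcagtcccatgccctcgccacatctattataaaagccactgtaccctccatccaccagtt
S100a8: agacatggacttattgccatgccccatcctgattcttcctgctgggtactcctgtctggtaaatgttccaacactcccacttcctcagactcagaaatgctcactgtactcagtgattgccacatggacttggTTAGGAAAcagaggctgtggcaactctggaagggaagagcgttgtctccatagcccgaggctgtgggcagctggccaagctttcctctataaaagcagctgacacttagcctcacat
*Saa1* and *Orm2* held 2 matches each, *Saa3* 4 and *S100a8* 1, and the STAT motif had no match in any of these 4 stretches. TTNNGNAA was found in 7 of the 8 called acute-phase genes with a RefSeq promoter (all called ones but *Hp* and *Orm1*) and in 36.8% of all 32851 promoters of this length. The STAT motif TTCNNNGAA was in 2 of the 8 and in 7.02% of all, both strands searched. Both motifs were chosen after the expression values were seen, and a match is a description of the letters.

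**Figure D2:**
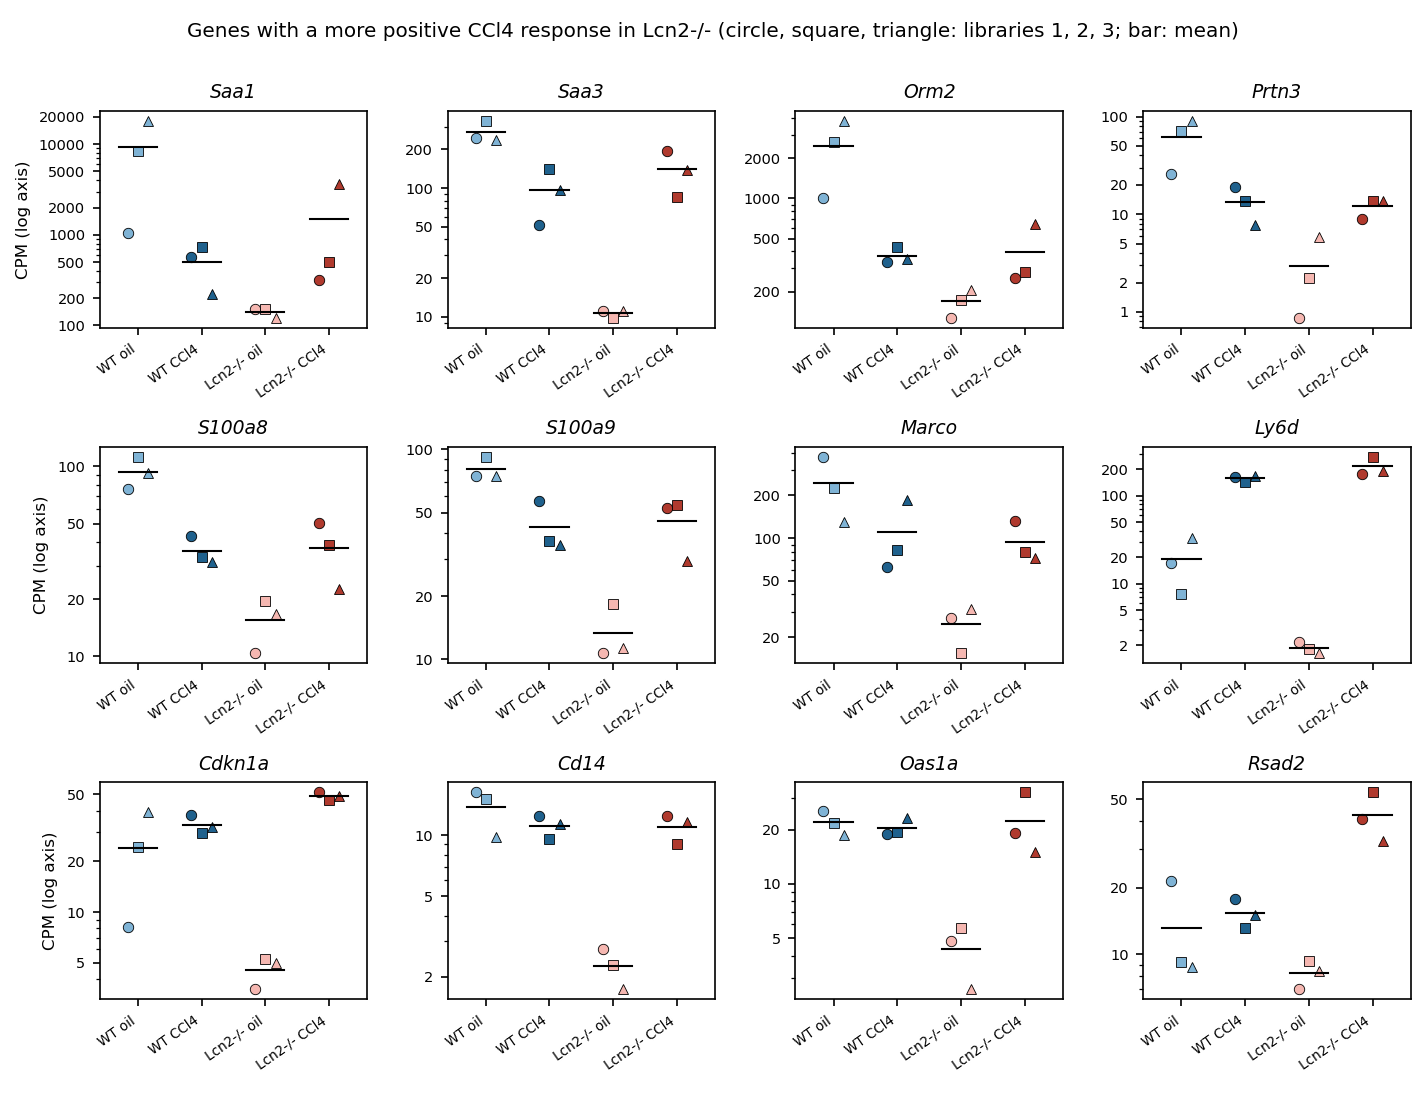
CPM (log axis) of 12 genes with a positive difference in the 4 groups, 1 symbol per library and a bar at the mean. The Lcn2-/- oil group has the lowest mean in each panel, and in *Rsad2*, *Cdkn1a* and *Ly6d* the Lcn2-/- CCl4 libraries lie above all others.

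Neutrophil markers had 4 calls among the 14 of 20 that were measured, all positive, against 1.09% of all genes. These were *Prtn3*, *Retnlg*, *S100a8* and *S100a9*. The median difference was 1.27, with 13 of 14 above 0, and 3 to 5 were called with 1 library left out, 3 without the library with little *Xist*. *Ly6g*, *Ctsg*, *Cd177*, *Padi4*, *Trem1* and *Stfa2l1* were not in the joined table, and *Mpo* and *Elane*, the granule peroxidase and elastase, were at 0 in some libraries. The summed level of the 14 markers was 205 to 318 CPM on oil and 97.2 to 148 CPM on CCl4 in the wild type, and 26.9 to 51 and 81 to 136 CPM in the Lcn2-/- livers. In this sum, oil libraries of the wild type were highest, those of Lcn2-/- lowest, and the 2 CCl4 groups overlapped. Most of it came from the called genes *S100a8*, *S100a9* and *Prtn3*, with wild type oil means of 93.9, 80.6 and 62.3 CPM. The sum therefore says little of the other markers.

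*S100a8* and *S100a9* encode the pair of calcium-binding proteins that form calprotectin, the main cytosolic protein of neutrophils. On oil, *S100a8* was at 76.3, 113 and 92.6 CPM in the wild type and 10.4, 19.7 and 16.6 CPM in the Lcn2-/- livers. On CCl4, *S100a8* was at 42.8, 33.3 and 31.6 CPM in the wild type and 50.5, 38.4 and 22.5 CPM in the Lcn2-/- livers. It fell in the wild type (-1.36) and rose in Lcn2-/- (1.18), a difference of 2.53 (standard error 0.35, adjusted p = 0.00112, limma). *S100a9* was at 74.7 to 92.5 CPM on oil and 35.2 to 56.9 CPM on CCl4 in the wild type, and at 10.7 to 18.3 and 29.5 to 54.2 CPM in the Lcn2-/- livers, a difference of 2.60 (standard error 0.33, adjusted p = 0.000627, limma). For both genes, the wild type oil group was above, and the Lcn2-/- oil group below, every library of the other groups. *Prtn3*, proteinase 3 of the azurophil granules, was at 25.7 to 90.4 CPM on oil and 7.72 to 19 CPM on CCl4 in the wild type, and at 0.872 to 5.83 and 8.97 to 13.8 CPM in the Lcn2-/- livers. It fell in the wild type (-2.04) and rose in Lcn2-/- (1.90), a difference of 3.94 (standard error 0.62, adjusted p = 0.00295, limma). *S100a8* lies on chromosome 3 from 90668978 to 90670035.

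Macrophage lists had fewer calls and the same sign. In the list of monocyte and inflammatory macrophage markers, 3 of 24 were called, all positive, against 1.09% of all genes. All 24 were above 0 (median 0.84). *Cd14*, the co-receptor for lipopolysaccharide, was at 9.74 to 16.3 CPM on oil and 9.53 to 12.5 CPM on CCl4 in the wild type, and at 1.74 to 2.72 and 9.06 to 12.4 CPM in the Lcn2-/- livers. The Lcn2-/- oil group lay below all others, whose ranges overlapped, and the difference was 2.14 (standard error 0.31, adjusted p = 0.00149, limma). *Lyz2*, lysozyme, had a difference of 1.73 (adjusted p = 0.035, limma), and *Itgb2*, the shared chain of the leukocyte integrins, one of 1.30 (adjusted p = 0.0381, limma). Both calls were lost in 8 of 12 fits that left out a library, and in the one without the library with little *Xist* (adjusted p = 0.0978 and 0.108, limma). The list had 1 to 12 calls across these fits, 12 without Lcn2-/- CCl4 replicate 3 and 1 without the library with little *Xist*. DESeq2 with all libraries called 10 of the list. Its summed level was 698 to 1309 CPM on oil and 865 to 1257 CPM on CCl4 in the wild type, and 329 to 456 and 577 to 1128 CPM in the Lcn2-/- livers.

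Of 16 Kupffer cell markers, 2 were called, and all 16 were above 0 (median 0.77). *Marco*, a scavenger receptor for bacteria and particles, carried the largest difference. On oil, *Marco* was at 376, 227 and 129 CPM in the wild type and 27.4, 15.4 and 31.6 CPM in the Lcn2-/- livers. On CCl4, *Marco* was at 62.6, 82.7 and 185 CPM in the wild type and 131, 79.3 and 72.3 CPM in the Lcn2-/- livers. All Lcn2-/- oil libraries lay below every other library, the other groups overlapped, and the difference was 3.06 (standard error 0.53, adjusted p = 0.00579, limma). *Marco* fell in the wild type (-1.17) and rose in Lcn2-/- (1.89). *Il18bp*, the soluble inhibitor of interleukin 18, had a difference of 0.87 (adjusted p = 0.0317, limma), lost in 8 of 12 fits without a library and with size factors (adjusted p = 0.0639), TMM (0.063) and edgeR (0.0614). Leaving out a library gave 1 to 4 calls, 1 without the library with little *Xist* and 4 without Lcn2-/- CCl4 replicate 3. The summed level of the list was 1160.0 to 1879 CPM on oil and 995 to 1635 CPM on CCl4 in the wild type, and 727 to 894 and 886 to 1295 CPM in the Lcn2-/- livers.

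Among 12 markers of lipid-associated macrophages, the cells that gather at liver scars, 3 were called positive and the median difference was 0.55. The list had a median response of 2.26 in the wild type and 2.63 in Lcn2-/-. *Fabp5*, a fatty acid carrier, was at 372 to 666 CPM on oil and 301 to 381 CPM on CCl4 in the wild type, and at 85 to 155 and 223 to 419 CPM in the Lcn2-/- livers, a difference of 1.82 (standard error 0.33, adjusted p = 0.00821, limma). Its response in the wild type was -0.41 and not called, unlike the list median there. *Cd9*, a tetraspanin, was at 45 to 47.2 CPM on oil and 58.8 to 78.5 CPM on CCl4 in the wild type, and at 23.6 to 25.8 and 77.6 to 83.5 CPM in the Lcn2-/- livers, a difference of 1.15 (standard error 0.16, adjusted p = 0.000914, limma). *Lgals3*, galectin 3, rose in both genotypes, and its difference of 1.40 (adjusted p = 0.0325, limma) was lost in 8 of 12 fits without a library. Across those fits 2 to 4 of the 12 were called, and 2 without the library with little *Xist*. The chemokines had 1 call among 25, *Cxcl1*, which draws in neutrophils. It was at 42.8 to 134 CPM on oil and 11 to 20.2 CPM on CCl4 in the wild type, and at 10.7 to 26.7 and 11.9 to 25.9 CPM in the Lcn2-/- livers. Its difference was 2.28 (adjusted p = 0.0279, limma) and was lost in 6 of 12 of these fits. Cytokines and their receptors had 1 among 21, the alarmin *Il33*, at 1.18 (adjusted p = 0.037, limma), lost in 10 of 12 of them. Neither the chemokines nor the cytokines had a call without the library with little *Xist*.

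Mesothelial markers had the highest median of the 39 lists, 1.67, with all 14 above 0 and 4 called, *Slpi*, *Krt8*, *Upk1b* and *Ezr*. Of these, keratin 8 is also a keratin of hepatocytes, ezrin is found in many epithelia, and *Slpi* encodes a secreted inhibitor of leukocyte proteases. *Upk1b*, a uroplakin, had the largest of the 4 differences, 2.39 (adjusted p = 0.0415, limma), with a response of -1.21 in the wild type and 1.18 in Lcn2-/- and a mean of 4.73 CPM. *Krt8* was at 200.1 to 255 CPM on oil and 333 to 414 CPM on CCl4 in the wild type, and at 148 to 177 and 471 to 545 CPM in the Lcn2-/- livers, and it rose in both genotypes with a difference of 0.88 (standard error 0.16, adjusted p = 0.00821, limma). *Ezr* was at 15.7 to 26.8 CPM on oil and 9.46 to 14.4 CPM on CCl4 in the wild type, and at 4.09 to 5.99 and 9.06 to 15.7 CPM in the Lcn2-/- livers, a difference of 1.76 (standard error 0.33, adjusted p = 0.00997, limma). *Slpi* was at 13.7 to 35.2 CPM on oil and 27.9 to 58.1 CPM on CCl4 in the wild type, and at 2.11 to 3.52 and 18.2 to 60.1 CPM in the Lcn2-/- livers. Its difference of 2.23 (adjusted p = 0.0317, limma) was lost in 8 of 12 fits without a library. The bile duct keratin *Krt19* was the only call among 10 bile duct markers. It was at 8.41 to 13 CPM on oil and 4.54 to 6.58 CPM on CCl4 in the wild type, and at 1.08 to 1.49 and 3 to 6.59 CPM in the Lcn2-/- livers, a difference of 2.19 (standard error 0.36, adjusted p = 0.00418, limma). *Krt19* had a response of -0.90 in the wild type, unlike its list, whose median response there was 0.72. The 10 markers had a median difference of 0.24, with 3 below 0, and a summed level of 104 to 221 CPM on oil and 343 to 777 CPM on CCl4 in the wild type, and 54.8 to 62.8 and 230.4 to 287 CPM in the Lcn2-/- livers. Of the mesothelial markers, 2 to 7 were called with 1 library left out, 7 without Lcn2-/- CCl4 replicate 3, and 4 without the library with little *Xist*. Those 4 were 3 of the genes called with all libraries and *Aldh1a2*. The summed level of the mesothelial list was 1559 to 2444 CPM on oil and 2047 to 2419 CPM on CCl4 in the wild type, and 1321 to 1578 and 2185 to 2373 CPM in the Lcn2-/- livers. The list had a median response of -0.69 in the wild type and 0.91 in Lcn2-/-. The wild type sum did not follow this median, at a middle value of 2026 CPM on oil and 2248 CPM on CCl4, because abundant members weigh most in a sum.

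Of 27 interferon-stimulated genes, 3 were called positive, and all 27 were above 0 (median 0.95). Their arrangement was not the same. *Oas1a*, a sensor of double-stranded RNA, was at 18.6 to 25.5 CPM on oil and 19 to 23.2 CPM on CCl4 in the wild type, and at 2.6 to 5.67 and 15.1 to 32.3 CPM in the Lcn2-/- livers. Only the Lcn2-/- oil group stood apart, with a difference of 2.18 (standard error 0.35, adjusted p = 0.0035, limma). *Irf7*, the transcription factor of the type I interferon response, fell in the wild type (-0.74) and rose in Lcn2-/- (0.69), a difference of 1.43 (adjusted p = 0.0207, limma). That call was lost in 3 of 12 fits without a library, the one without the library with little *Xist* among them (adjusted p = 0.0504). Without that library 2 genes of the list were called, and 8 without Lcn2-/- CCl4 replicate 3.

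*Rsad2*, which encodes the antiviral enzyme viperin, differed on CCl4. On oil, *Rsad2* was at 21.5, 9.24 and 8.78 CPM in the wild type and 6.98, 9.33 and 8.43 CPM in the Lcn2-/- livers. On CCl4, *Rsad2* was at 17.8, 13.2 and 15.1 CPM in the wild type and 41, 53.9 and 32.4 CPM in the Lcn2-/- livers. The Lcn2-/- CCl4 group was above all other libraries, and the other groups spanned 6.98 to 21.5 CPM. The response was 0.31 in the wild type and 2.21 in Lcn2-/-, a difference of 1.90 (standard error 0.37, adjusted p = 0.0113, limma), and the genotypes differed on CCl4 by 1.39 (adjusted p = 0.02, limma). *Gvin1*, a very large interferon-inducible GTPase with close copies in the genome, was at 12.4 to 41.9 CPM on oil and 16 to 24.3 CPM on CCl4 in the wild type, and at 0 to 4.25 and 10.3 to 15.9 CPM in the Lcn2-/- livers. Its difference was 3.32 (adjusted p = 0.0193, limma). It was not called in 3 of 12 fits without a library nor with DESeq2 (adjusted p = 0.32).

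Genes of DNA replication had positive median responses in both genotypes. Of 50, 5 were called positive, *Mcm3*, *Mcm5*, *Pcna*, *Pola2* and *Rrm2*, and 44 were above 0, with a median difference of 0.58, a median response of 1.28 in the wild type and 1.88 in Lcn2-/-. The median genotype difference was small on oil (-0.13) and positive on CCl4 (0.49). *Rrm2*, the small subunit of ribonucleotide reductase, makes the building blocks of DNA. On oil, *Rrm2* was at 5.28, 3.96 and 5.17 CPM in the wild type and 2.4, 2.15 and 1.61 CPM in the Lcn2-/- livers. On CCl4, *Rrm2* was at 95.8, 61.5 and 49.5 CPM in the wild type and 110.1, 95 and 111 CPM in the Lcn2-/- livers. The Lcn2-/- libraries were lowest on oil, and on CCl4 the groups overlapped in part. The difference was 1.58 (standard error 0.28, adjusted p = 0.00723, limma). *Mcm3*, a subunit of the replicative helicase, was at 4.55 to 5.16 CPM on oil and 12.6 to 23.6 CPM on CCl4 in the wild type, and at 2.37 to 2.62 and 26 to 35 CPM in the Lcn2-/- livers, a difference of 1.61 (standard error 0.31, adjusted p = 0.00997, limma). *Pcna*, the sliding clamp, had a difference of 0.97 (standard error 0.19, adjusted p = 0.0135, limma), and its call was lost without wild type CCl4 replicate 2. The 5 calls of the list depended on single libraries, with 3 left without the library with little *Xist*, 2 without wild type CCl4 replicate 2, 3 each without wild type CCl4 replicate 3, wild type oil replicate 2 and Lcn2-/- CCl4 replicates 1 and 3, and 6 at most.

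Mitosis genes had the largest median responses of all lists in both genotypes, 3.69 in the wild type and 4.06 in Lcn2-/-. Of 35, 2 were called, both positive, against 1.09% of all genes. *Top2a*, topoisomerase II, had a difference of 1.39 (adjusted p = 0.0266, limma) and *Cdk1*, the kinase that starts mitosis, one of 1.37 (adjusted p = 0.0426, limma). These were lost in 5 and 9 of 12 fits without a library, both without the one with little *Xist*. *Cdk1* was at 2.64 to 3.73 CPM on oil in the wild type and 0.248 to 1.85 CPM in Lcn2-/-, against 63.4 to 90.3 and 81.1 to 94.6 CPM on CCl4.

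The only call among 18 p53 targets was *Cdkn1a*, the cell cycle inhibitor p21. On oil, *Cdkn1a* was at 8.19, 24.5 and 39.1 CPM in the wild type and 3.49, 5.24 and 4.96 CPM in the Lcn2-/- livers. On CCl4, *Cdkn1a* was at 37.7, 29.3 and 32 CPM in the wild type and 51.4, 46.2 and 48.6 CPM in the Lcn2-/- livers. On CCl4 every Lcn2-/- library was above every wild type library, and on oil every one was below. The gene rose in Lcn2-/- (3.17), the wild type response of 0.68 was not called, and the difference was 2.49 (standard error 0.48, adjusted p = 0.0104, limma). The median of the 18 targets was 0.19. Immediate early genes had 2 calls among 22. *Jun* was at 9.28 to 14 CPM on oil and 26 to 32.1 CPM on CCl4 in the wild type, and at 2.51 to 3.27 and 28.5 to 35.8 CPM in the Lcn2-/- livers, a difference of 1.73 (standard error 0.24, adjusted p = 0.00142, limma), and reads of its antisense neighbour *Junos* cannot be told apart from it, since the strand setting is not known. *Fosl2* had a difference of 1.42 (adjusted p = 0.0206, limma), lost in 4 of 12 fits without a library.

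*Ly6d*, a small surface protein, rose strongly in both genotypes. On oil, *Ly6d* was at 17.1, 7.68 and 32.8 CPM in the wild type and 2.18, 1.79 and 1.61 CPM in the Lcn2-/- livers. On CCl4, *Ly6d* was at 166, 145 and 169 CPM in the wild type and 179, 280.1 and 190.0 CPM in the Lcn2-/- livers. The genotypes did not overlap on oil, with Lcn2-/- lower, nor on CCl4, with Lcn2-/- higher. Its response was 3.20 in the wild type and 6.22 in Lcn2-/-, a difference of 3.02 (standard error 0.44, adjusted p = 0.00157, limma). *Isyna1*, which makes inositol phosphate, was at 14.9 to 72 CPM on oil and 15.7 to 17.3 CPM on CCl4 in the wild type, and at 3.49 to 3.72 and 11.7 to 17.4 CPM in the Lcn2-/- livers, a difference of 2.69 (standard error 0.49, adjusted p = 0.00821, limma). *Vim*, the filament protein of mesenchymal cells and the only call among 34 other matrix genes, was at 31 to 58.7 CPM on oil and 77.6 to 101 CPM on CCl4 in the wild type, and at 12.1 to 17.7 and 65.5 to 123 CPM in the Lcn2-/- livers. Its difference was 1.58 (standard error 0.31, adjusted p = 0.0135, limma), and the call was lost without wild type CCl4 replicate 2.

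*Rnu3b4*, a copy of the U3 small nucleolar RNA named here from the reference annotation, was listed at 0 in all 3 wild type CCl4 libraries. It was at 9.36 to 31.8 CPM in wild type oil, 12.3 to 24.6 CPM in Lcn2-/- oil and 9.1 to 22.2 CPM in Lcn2-/- CCl4. The fitted difference was 4.28 (adjusted p = 0.000627, limma), a value that depends on the pseudocount and is no bound, and U3 copies can share reads.

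Cholesterol synthesis had 4 calls among 25 genes, all positive, *Cyp51*, *Fdps*, *Idi1* and *Nsdhl*, with a median difference of 0.45. Without a library, 1 to 8 were called, 8 without Lcn2-/- oil replicate 3 and 1 without the library with little *Xist*. Size factors, TMM and edgeR each gave 1 positive call, and DESeq2 4. The median response of the list was -0.26 in the wild type and 0.25 in Lcn2-/-. *Fdps*, farnesyl diphosphate synthase, was at 224 to 277 CPM on oil and 141 to 170.1 CPM on CCl4 in the wild type, and at 153 to 229 and 219 to 249 CPM in the Lcn2-/- livers. It fell in the wild type (-0.66), was not called in Lcn2-/- (0.39), and differed by 1.04 (standard error 0.19, adjusted p = 0.00784, limma). *Idi1*, at 0.99 (adjusted p = 0.0362, limma), and the demethylase *Cyp51*, at 0.79 (adjusted p = 0.0317, limma), lost their calls with size factors (adjusted p = 0.056 and 0.0576), TMM (0.0586 and 0.0583), edgeR (0.0655 and 0.0688) and without the library with little *Xist* (0.086 and 0.0908). They were lost in 8 and 7 of 12 fits that left out a library. Of 24 genes of the unfolded protein response, 2 were called, asparagine synthetase *Asns*, at 2.12 (adjusted p = 0.0108, limma), with a mean of 1.89 CPM, and the disulfide isomerase *Pdia6*, at 0.82 (adjusted p = 0.0179, limma), whose call was lost in 3 of 12 fits without a library, the one with little *Xist* among them.

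Of the 124 genes with a negative difference, 27 (21.8%) were members of any of the 39 lists, as were 50 of the 165 positive ones (30.3%). The lists with the most negative calls were those of hepatocyte metabolism. Of 43 genes of cytochrome P450 and drug metabolism, 9 were called negative and 1 positive, against 0.816% and 1.09% of all genes. Of the 43, 38 were below 0, with a median of -0.68 against 0.09 for all genes. The negative calls were *Ces2a*, *Cyp2b9*, *Cyp2b10*, *Cyp2c29*, *Cyp2c37*, *Cyp2e1*, *Cyp2f2*, *Cyp3a25* and *Cyp3a59*, and 5 to 12 were called with 1 library left out, 7 without the one with little *Xist* and 5 without Lcn2-/- oil replicate 1. The median response was -0.16 in the wild type and -0.66 in Lcn2-/-, and the median genotype difference was 0.53 on oil and -0.03 on CCl4. With size factors the list median was -0.77, and 14 genes were called negative with size factors or TMM.

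*Cyp2b10*, a drug-metabolising P450 that the receptor CAR induces, rose in the wild type alone. On oil, *Cyp2b10* was at 161, 128 and 98.8 CPM in the wild type and 195, 191 and 149 CPM in the Lcn2-/- livers. On CCl4, *Cyp2b10* was at 392, 563 and 498 CPM in the wild type and 212, 229 and 172 CPM in the Lcn2-/- livers. The wild type CCl4 libraries were above all others, and the Lcn2-/- groups overlapped. Its response was 1.91 in the wild type and 0.19 (not called) in Lcn2-/-, a difference of -1.71 (standard error 0.24, adjusted p = 0.00112, limma). On CCl4 alone the genotypes differed by -1.24 (adjusted p = 0.00124, limma). *Cyp2b10* lies on chromosome 7 from 25897620 to 25926624.

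*Cyp3a25* and the carboxylesterase *Ces2a* were arranged differently. *Cyp3a25* was at 223 to 371 CPM on oil and 273 to 359 CPM on CCl4 in the wild type, and at 501 to 624 and 206 to 251 CPM in the Lcn2-/- livers, a difference of -1.39 (standard error 0.22, adjusted p = 0.0026, limma). *Ces2a* was at 165 to 205 CPM on oil and 159 to 253 CPM on CCl4 in the wild type, and at 314 to 373 and 117 to 166 CPM in the Lcn2-/- livers, a difference of -1.48 (standard error 0.22, adjusted p = 0.00208, limma). In both, the Lcn2-/- oil group was above every other library and the wild type groups overlapped. *Cyp2e1*, the enzyme that activates CCl4 and the only call among 18 pericentral genes, fell in both genotypes. It was at 2125 to 2713 CPM on oil and 325 to 378 CPM on CCl4 in the wild type, and at 3169 to 4145 and 196 to 358 CPM in the Lcn2-/- livers, and its difference of -0.97 (adjusted p = 0.0473, limma) was lost in 10 of 12 fits without a library, the one with little *Xist* among them. The positive call, *Cyp3a41a*, was at 149 to 300.3 CPM on oil and 0.891 to 1.36 CPM on CCl4 in the wild type, and at 229.8 to 543 and 7.55 to 18.3 CPM in the Lcn2-/- livers. It fell in both genotypes and less in Lcn2-/-, a difference of 2.04 (adjusted p = 0.0209, limma), with reads that can be shared with the copy *Cyp3a41b*, and the call was lost in 3 of 12 fits without a library.

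Periportal hepatocyte genes, which include the urea cycle, had 7 negative calls among 20, against 0.816% of all genes. These were *Ass1*, *Asl*, *Otc*, *Hal*, *Hsd17b6*, *Cyp2f2* and *Cyp8b1*. Of the 20, 19 were below 0, with a median of -0.56. Leaving out 1 library gave 2 to 8 calls. There were 4 without the library with little *Xist*, namely 3 of the 7 and *Pigr*, and 4 without wild type oil replicate 2. There were 3 without wild type CCl4 replicate 2 or 3 or Lcn2-/- CCl4 replicate 1, and 2 without Lcn2-/- oil replicate 1 or 2. *Asl*, argininosuccinate lyase of the urea cycle, moved apart on CCl4. On oil, *Asl* was at 359, 343 and 339.7 CPM in the wild type and 435, 449 and 377 CPM in the Lcn2-/- livers. On CCl4, *Asl* was at 364, 475 and 468 CPM in the wild type and 253, 262 and 241 CPM in the Lcn2-/- livers. All 3 Lcn2-/- CCl4 libraries were below every other library. The wild type response of 0.32 was not called, Lcn2-/- fell (-0.73), and the difference was -1.05 (standard error 0.15, adjusted p = 0.00149, limma). On CCl4 the genotypes differed by -0.78 (adjusted p = 0.00124, limma). *Hal*, histidine ammonia lyase, was at 297 to 334 CPM on oil and 257 to 334 CPM on CCl4 in the wild type, and at 371 to 459 and 187 to 221 CPM in the Lcn2-/- livers, a difference of -0.90 (standard error 0.16, adjusted p = 0.00641, limma).

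Bile acid synthesis and transport had 5 negative calls among 22, against 0.816% of all genes, and a median of -0.50. The 5 were *Akr1d1*, *Cyp8b1*, *Slc27a5*, *Abcc3* and *Slco1a4*. The number of calls was 2 to 7 with 1 library left out. It was 3 without the library with little *Xist* or wild type CCl4 replicate 2 or 3, and 2 without wild type oil replicate 2 or Lcn2-/- oil replicate 1 or 2. *Akr1d1*, the reductase of the steroid ring in bile acid synthesis, was at 160.2 to 177 CPM on oil and 133 to 170.4 CPM on CCl4 in the wild type, and at 194 to 245 and 89.4 to 108 CPM in the Lcn2-/- livers. It fell in Lcn2-/- (-1.18), where the CCl4 libraries were below all others, and the difference was -1.02 (standard error 0.16, adjusted p = 0.00271, limma). *Cyp8b1*, the enzyme that commits to cholic acid, fell in both genotypes, with responses of -2.61 and -4.14. On oil, *Cyp8b1* was at 298, 242 and 332 CPM in the wild type and 350.4, 426 and 326 CPM in the Lcn2-/- livers. On CCl4, *Cyp8b1* was at 44.5, 75.8 and 29.7 CPM in the wild type and 22.2, 23.4 and 15 CPM in the Lcn2-/- livers. The oil groups overlapped, the CCl4 groups did not, and the difference was -1.53 (standard error 0.34, adjusted p = 0.0251, limma), lost in 3 of 12 fits without a library. The efflux pump *Abcc3* had a difference of -0.68 (standard error 0.14, adjusted p = 0.0168, limma), a call lost without wild type oil replicate 2 and without Lcn2-/- oil replicate 2 (adjusted p up to 0.0558).

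Fatty acid oxidation and targets of the fasting receptor PPAR alpha had 3 negative calls among 28, with a median of -0.28 and 21 below 0. They numbered 1 to 5 with 1 library left out and 2 without the one with little *Xist*. *Acaa1b*, a thiolase of peroxisomes, was at 181 to 329.6 CPM on oil and 177 to 301 CPM on CCl4 in the wild type, and at 441 to 504 and 139.8 to 213 CPM in the Lcn2-/- livers, a difference of -1.55 (standard error 0.29, adjusted p = 0.0089, limma). *Dlec1*, which had the smallest adjusted p of the negative calls, overlaps *Acaa1b* on the other strand on chromosome 9, so reads of the pair cannot be told apart here. On oil, *Dlec1* was at 372, 329 and 289.9 CPM in the wild type and 904, 926 and 821 CPM in the Lcn2-/- livers. On CCl4, *Dlec1* was at 401, 492 and 512 CPM in the wild type and 275, 255 and 303 CPM in the Lcn2-/- livers. The Lcn2-/- oil group stood above and the Lcn2-/- CCl4 group mostly below the wild type libraries. The difference was -2.17 (standard error 0.16, adjusted p = 2.65e-06, limma). *Ehhadh*, at -1.09 (adjusted p = 0.0235, limma), and the omega-hydroxylase *Cyp4a10*, at -2.17 (adjusted p = 0.0362, limma), lost their calls in 7 and 8 of 12 fits without a library, and *Cyp4a10* with DESeq2 (adjusted p = 0.0526).

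Several single genes had larger negative differences. *Car3*, carbonic anhydrase 3, was high only in Lcn2-/- oil. On oil, *Car3* was at 683, 867 and 548 CPM in the wild type and 2091, 2378 and 1969.7 CPM in the Lcn2-/- livers. On CCl4, *Car3* was at 879, 1086 and 719 CPM in the wild type and 630.4, 649 and 604 CPM in the Lcn2-/- livers. The difference was -2.13 (standard error 0.22, adjusted p = 8.87e-05, limma). *Upp2*, uridine phosphorylase 2, was at 67 to 97.5 CPM on oil and 67.2 to 106 CPM on CCl4 in the wild type, and at 120.2 to 142 and 24.4 to 41.5 CPM in the Lcn2-/- livers, with Lcn2-/- oil above and Lcn2-/- CCl4 below all other libraries and a difference of -2.05 (standard error 0.26, adjusted p = 0.000627, limma). *Meg3*, an imprinted long noncoding RNA, was the most negative gene with a mean of at least 5 CPM. On oil, *Meg3* was at 0.91, 0.6 and 0.481 CPM in the wild type and 5.99, 19.4 and 7.56 CPM in the Lcn2-/- livers. On CCl4, *Meg3* was at 9.61, 15.8 and 11.5 CPM in the wild type and 5.27, 9.26 and 6 CPM in the Lcn2-/- livers. The wild type oil group stood below all others, so the difference of -3.46 (standard error 0.47, adjusted p = 0.000914, limma) came with a rise in the wild type (2.98) and an uncalled response of -0.48 in Lcn2-/-.

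*Hamp2*, a copy of the hepcidin gene that can share reads with *Hamp*, was 1 of 2 calls among 20 iron handling genes, with *Cp*. On oil, *Hamp2* was at 219, 235 and 127 CPM in the wild type and 479, 459 and 565 CPM in the Lcn2-/- livers. On CCl4, *Hamp2* was at 202, 460.4 and 441 CPM in the wild type and 188, 96.5 and 145 CPM in the Lcn2-/- livers. It rose in the wild type (0.88) and fell in Lcn2-/- (-1.85), a difference of -2.72 (standard error 0.40, adjusted p = 0.00156, limma). The median of the iron genes was 0.10. Of 18 major urinary proteins, 2 were called negative, *Mup19* and *Mup6*. *Mup19* was at 194 to 1459 CPM on oil and 0 to 1.1 CPM on CCl4 in the wild type, and at 3464 to 6133 and 0.302 to 1 CPM in the Lcn2-/- livers. Since both CCl4 groups were near 0, the fitted difference of -3.01 (adjusted p = 0.0279, limma) follows the oil groups. The call was lost in 5 of 12 fits without a library, with edgeR (adjusted p = 0.487) and with DESeq2 (0.487). *Gm13775*, a predicted gene that overlaps the urinary protein pseudogene *Mup-ps16*, behaved likewise, at 51.6 to 142 CPM on oil and 0.795 to 4.09 CPM on CCl4 in the wild type, and at 283 to 362 and 0.403 to 3 CPM in the Lcn2-/- livers. Its difference of -2.49 (adjusted p = 0.0266, limma) was lost in 8 of 12 of those fits, with edgeR (adjusted p = 0.0647) and with DESeq2 (0.109). Of the urinary proteins, 1 to 5 were called with 1 library left out and 1 without the one with little *Xist*. *Mup6* had a mean of 2.17 CPM and a difference of -2.15 (adjusted p = 0.00817, limma).

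Circadian clock genes had 2 negative calls among 19, against 0.816% of all genes, and their median was -0.04. *Tef*, an output factor of the clock, was at 7.08 to 9.19 CPM on oil and 11.1 to 13.6 CPM on CCl4 in the wild type, and at 15.3 to 28 and 6.44 to 12 CPM in the Lcn2-/- livers, a difference of -1.68 (standard error 0.32, adjusted p = 0.00997, limma). *Per3* was at 0.96 to 1 CPM on oil and 3.52 to 4.64 CPM on CCl4 in the wild type, and at 2.3 to 8.07 and 1.01 to 3.16 CPM in the Lcn2-/- livers, and its difference of -2.05 (adjusted p = 0.0315, limma) was lost in 7 of 12 fits without a library, the one with little *Xist* among them. The hour of the day at which livers were taken is not given in the sources used here.

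**Figure D3:**
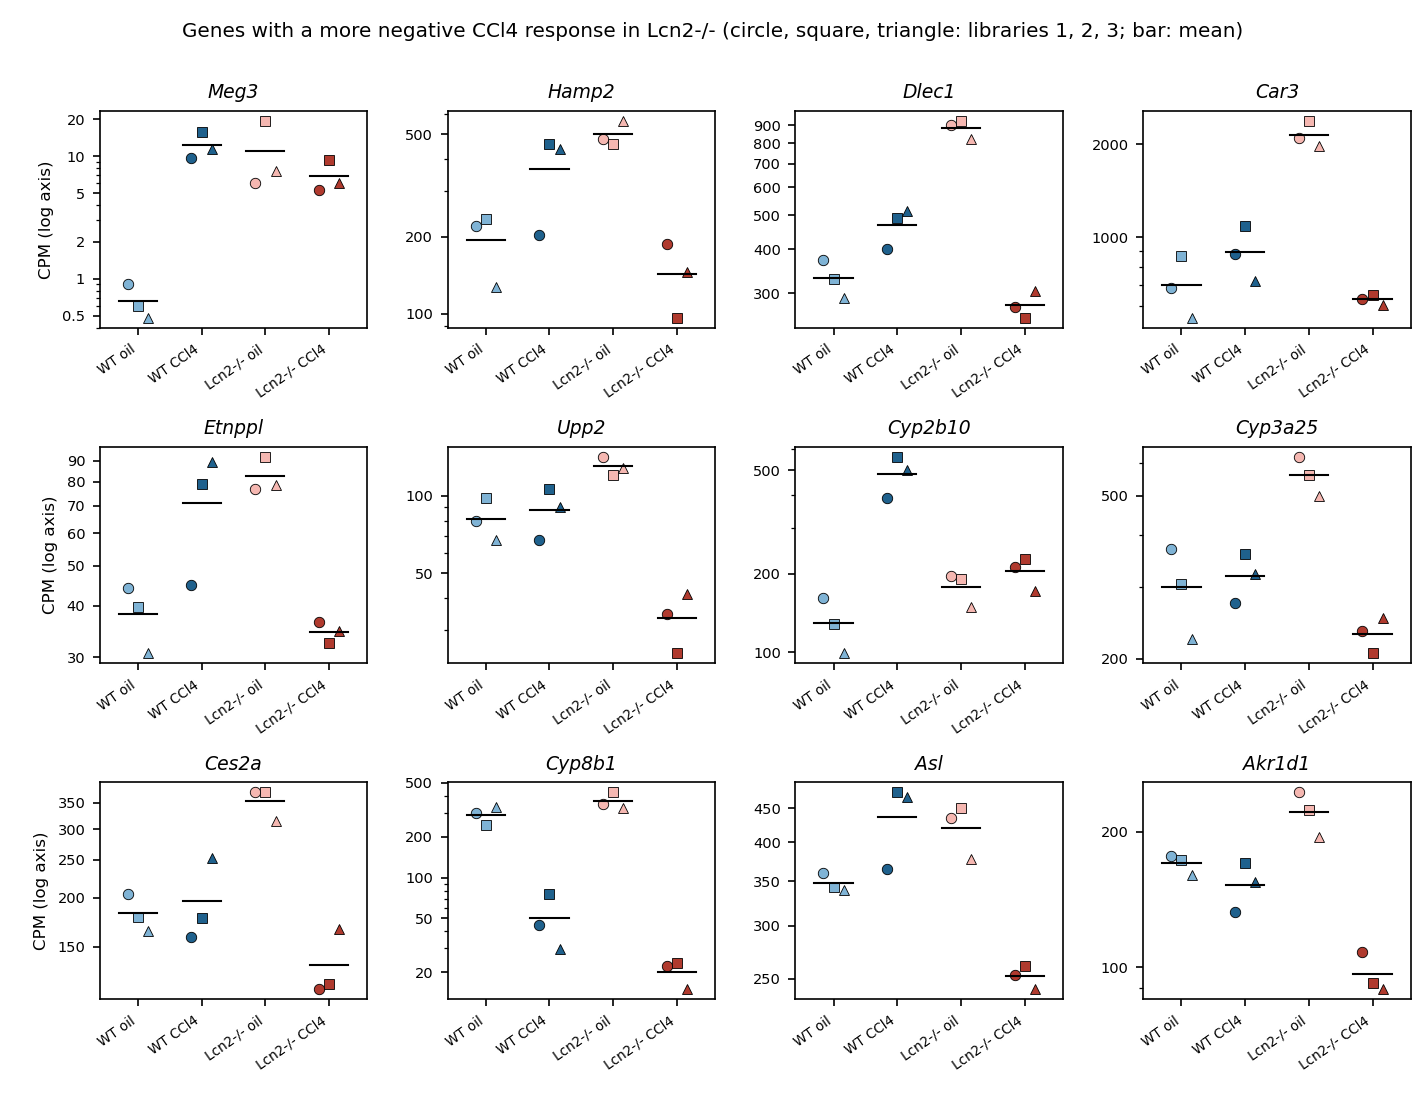
CPM (log axis) of 12 genes with a negative difference in the 4 groups, 1 symbol per library and a bar at the mean. *Car3*, *Dlec1*, *Cyp3a25* and *Ces2a* are high in Lcn2-/- oil alone, *Asl* and *Akr1d1* are low in Lcn2-/- CCl4, and *Cyp2b10* is high in wild type CCl4 alone.

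For 26 of the 289 genes, both responses were called with opposite signs, 20 of them up in Lcn2-/- and down in the wild type and 6 the reverse. The count was 17 without wild type CCl4 replicate 2, 20 without Lcn2-/- CCl4 replicate 2, and 18 with size factors or TMM. The 2 responses share no library. Beside *Saa1*, *Saa3*, *Orm2*, *Prtn3*, *S100a8*, *S100a9*, *Marco*, *Irf7*, *Ezr* and *Krt19*, the first kind included *Hspb1*, a small heat shock protein. On oil, *Hspb1* was at 53.9, 36.8 and 34.4 CPM in the wild type and 20.5, 20.6 and 21.9 CPM in the Lcn2-/- livers. On CCl4, *Hspb1* was at 19.2, 18.9 and 21.8 CPM in the wild type and 31.3, 32 and 31.1 CPM in the Lcn2-/- livers. It fell in the wild type and rose in Lcn2-/- (0.56), a difference of 1.56 (standard error 0.21, adjusted p = 0.000812, limma).

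The reverse kind comprised *Hamp2*, *Etnppl*, *Cyp3a59*, *Afmid*, *Hao2* and *Olig1*. *Etnppl*, an enzyme that breaks down phosphoethanolamine, was at 30.7 to 44.3 CPM on oil and 44.8 to 89.2 CPM on CCl4 in the wild type, and at 76.8 to 92.1 and 32.4 to 36.5 CPM in the Lcn2-/- livers. Its response was 0.83 in the wild type and -1.23 in Lcn2-/-, a difference of -2.06 (standard error 0.27, adjusted p = 0.0008, limma). *Cyp3a59* was at 13.5 to 30.8 CPM on oil and 27.9 to 43.5 CPM on CCl4 in the wild type, and at 41 to 79.1 and 20.3 to 31.1 CPM in the Lcn2-/- livers, a difference of -1.94 (standard error 0.39, adjusted p = 0.0134, limma). *Afmid*, the formamidase of tryptophan breakdown, was at 57 to 87.1 CPM on oil and 106 to 118 CPM on CCl4 in the wild type, and at 103 to 145 and 69.1 to 87.2 CPM in the Lcn2-/- livers, with a difference of -1.27 (standard error 0.21, adjusted p = 0.00403, limma), and it overlaps *Tk1* on the other strand, whose reads cannot be told apart from it.

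Collagens and stellate cell markers had no call in limma with all 12 libraries. In the list of other matrix genes, where *Vim* was the only call, *Timp1* was also called positive with size factors, TMM, edgeR and DESeq2. At an unadjusted p under 0.05, 6 of the 22 collagens were positive and 2 negative, and edgeR called 0 and DESeq2 4. The 22 collagens had a median difference of 0.47, with 14 above 0, as were 59.3% of all genes. Their median response was 1.26 in the wild type and 1.48 in Lcn2-/-. *Col1a1*, the main collagen chain of liver scars, was at 10.8 to 15.1 CPM on oil and 328 to 668 CPM on CCl4 in the wild type, and at 3.47 to 6.17 and 179.5 to 433 CPM in the Lcn2-/- livers. It rose in both genotypes, and its difference was 0.89 (standard error 0.41, adjusted p = 0.318, limma). Without Lcn2-/- CCl4 replicate 3, whose level was the lowest on CCl4, the difference was 1.28 and was called (adjusted p = 0.0484, limma), as were 7 collagens in all. *Col18a1*, the collagen that carries endostatin, had a difference of -0.23 (standard error 0.13, adjusted p = 0.413, limma). Of 16 stellate cell and myofibroblast markers, limma called none, edgeR 0 and DESeq2 0, 4 were positive and 0 negative at an unadjusted p under 0.05, and 11 were above 0 (median 0.40). *Dcn*, decorin, had a difference of 0.45 (standard error 0.31, adjusted p = 0.551, limma). *Tagln*, a smooth muscle protein of myofibroblasts, had one of 1.15 (standard error 0.38, adjusted p = 0.142, limma). It was called without wild type CCl4 replicate 1, as were *Acta2*, *Col1a2* and *Col4a1*.

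No member was called by limma in 14 of the 39 lists. Of their 256 members, 39 (15.2%) were positive and 11 (4.30%) negative at an unadjusted p under 0.05, against 9.74% and 5.19% of all genes, edgeR called 0 and DESeq2 9. Beside the collagens and stellate cell markers, these were dendritic cells, T and NK cells, B and plasma cells, red blood cells, endothelium, the 2 measured markers of pancreas, gut and fat, MHC class II, fatty acid synthesis, NRF2 targets, and ribosomal, mitochondrially encoded and lysosomal genes. Without the library with little *Xist*, the p53, bile duct, other matrix, immediate early and iron lists had as many calls as with it, and the unfolded protein response and the clock genes 1 each. T and NK cell markers had a median difference of 0.10 and a summed level of 11.9 to 26.0 CPM over the 12 libraries. No list median changed its sign with size factors or TMM. A p that misses the threshold does not show that a list responded alike in both genotypes. Calls were missed in simulated data of the same libraries, where 43% of 100 genes with a true difference of 1 and 96% of 100 with a true difference of 2 were called. The changed genes had a mean of at least 5 CPM and were shifted in the Lcn2-/- CCl4 group alone. No other CCl4 or genotype effect was simulated, unlike in the data. These shares therefore cover neither lower genes nor libraries in which many genes respond to CCl4.

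**Figure D4:**
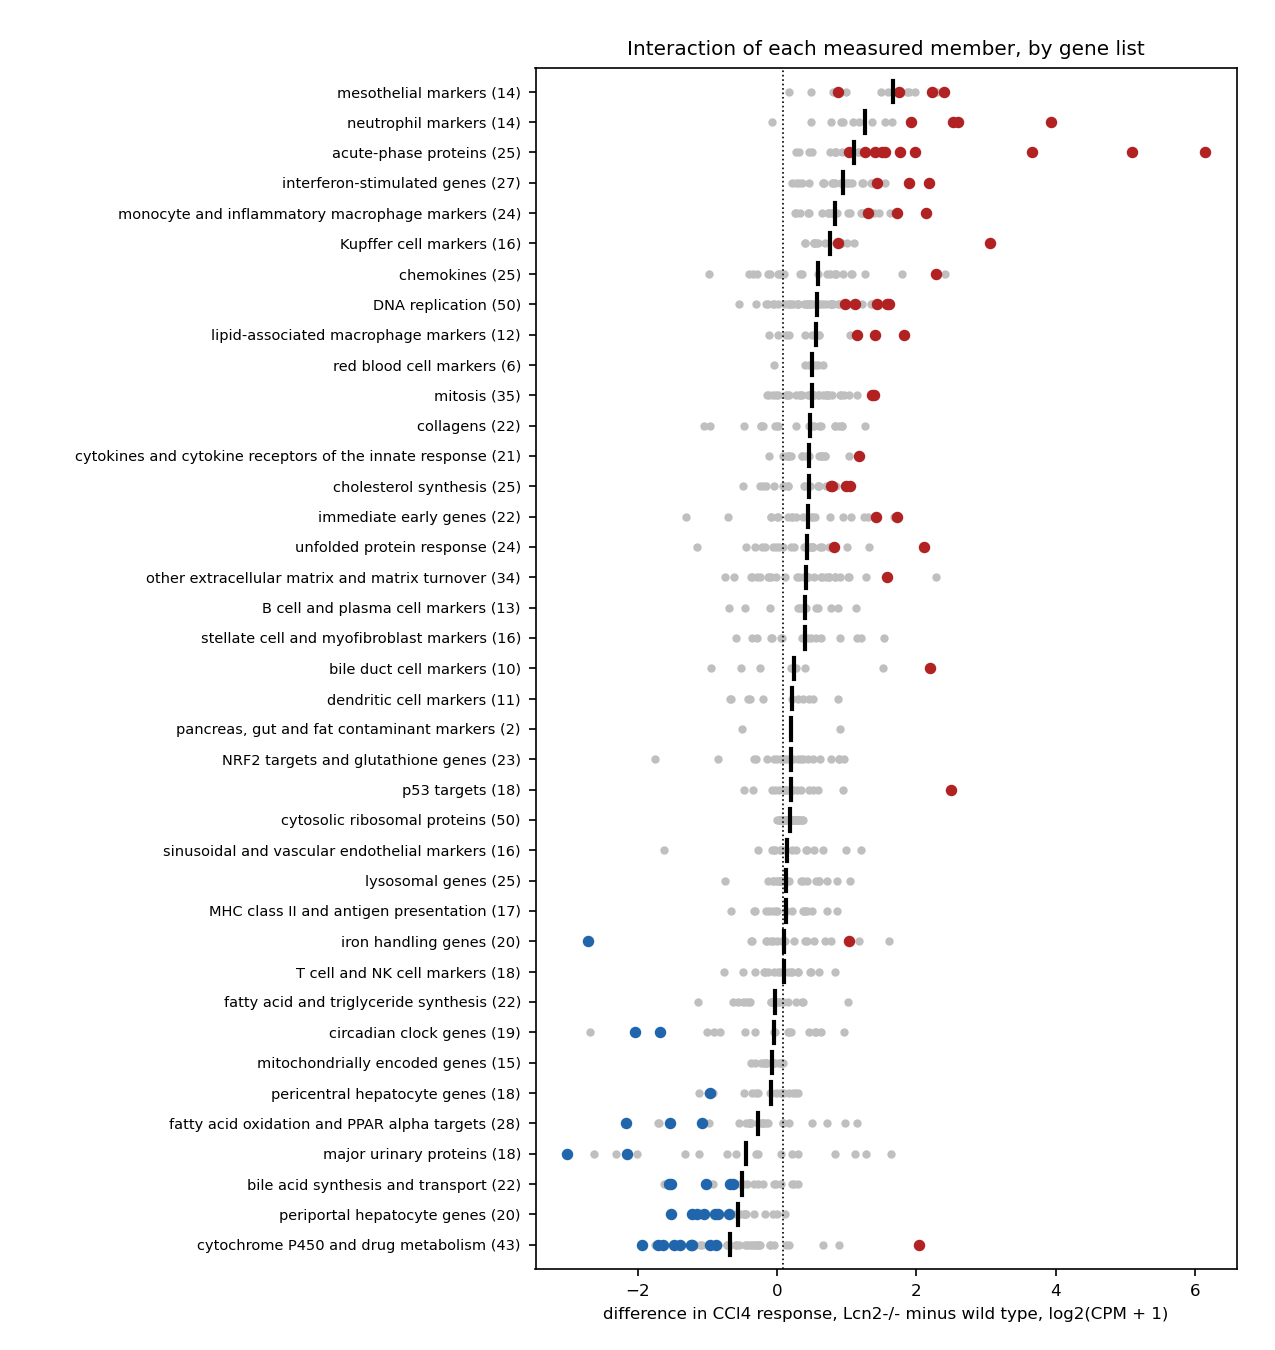
Difference between the CCl4 responses, Lcn2-/- minus wild type in log2(CPM + 1), of each measured member of 39 gene lists, with the number measured in brackets, red and blue points for positive and negative calls, black bars at list medians and a dotted line at the median of all genes. Mesothelial, neutrophil and acute-phase lists have medians of 1.67, 1.27 and 1.10, and cytochrome P450, periportal and bile acid lists medians of -0.68, -0.56 and -0.50.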

How the data were processed

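RNA-seq of whole liver was analysed in 12 libraries. The authors made the libraries with the rapid MACE kit, which reads 3′ ends, trimmed the reads and aligned them with STAR to mm10. For counting, Salmon is named in their methods and featureCounts in the submitters' processing notes. Their methods also list a kit for stranded total RNA, so the strand setting is not known. The deposited CPM are counts per gene that the authors scaled to each library's total, and 100% of the values came out whole (tolerance 0.001) when turned back into reads, so reads were recovered for the count tests. Value columns matched to no library numbered 0. Columns of the authors' own comparisons (DESeq2 1.30.0 fold changes and p-values), 2 tables between the genotypes and 8 enrichment tables were not used.

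The genes of both treatment tables were compared on log2(CPM + 1) in limma 3.58.1 (R 4.3.3), with 4 group means and a variance trend (17.1 degrees of freedom). A gene was called where the p after Benjamini-Hochberg adjustment did not exceed 0.05 and the difference was over 0.56. Alternatives were size factors, TMM, edgeR 4.0.16, DESeq2 1.42.0, pseudocounts of 0.5 and 5, a mean of at least 1 CPM, no trend, Benjamini-Yekutieli adjustment, other fold thresholds, a replicate block and each library left out. The 39 gene lists were described by counts and medians. Names cover *Lcn2*, the 10 largest called differences per direction with a mean of at least 5 CPM, up to 3 called members per list and direction, 2 abundant members of lists described without a call, and up to 5 opposite responses per direction. The members and lists were chosen with earlier results of these data known. Positions are from GENCODE M21 (GRCm38) and promoters from RefSeq (GRCm38.p6), and 178 genes lacked a symbol, of which 115 were named from the reference. The fit was tested on simulated data. The result of 1 member of the cholesterol synthesis list under the alternatives is not reported here.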

Additional observations from a re-analysis of the deposited data

Results flagged for a closer look

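The test of the difference between the genotypes' CCl4 responses was passed by 165 genes that responded more positively and 124 that responded more negatively in Lcn2-/-, and by each named gene below (log2 scale, limma). Groups of 3 libraries are too small for a test of single outlying libraries. Among acute-phase and neutrophil genes the differences were 6.15 for *Saa1*, 5.09 for *Saa3*, 3.67 for *Orm2*, 1.76 for *Steap4*, 1.03 for *Cp*, 3.94 for *Prtn3*, 2.60 for *S100a9* and 2.53 for *S100a8*. Among macrophage markers and inflammatory signals they were 3.06 for *Marco*, 2.14 for *Cd14*, 1.82 for *Fabp5*, 1.73 for *Lyz2*, 1.40 for *Lgals3*, 1.30 for *Itgb2*, 1.15 for *Cd9*, 0.87 for *Il18bp*, 2.28 for *Cxcl1* and 1.18 for *Il33*. Epithelial, matrix and surface genes had differences of 3.02 for *Ly6d*, 2.23 for *Slpi*, 2.19 for *Krt19*, 1.76 for *Ezr*, 1.58 for *Vim* and 0.88 for *Krt8*. Interferon-inducible genes had 3.32 for *Gvin1*, 2.18 for *Oas1a*, 1.90 for *Rsad2* and 1.43 for *Irf7*. Cell cycle and early response genes had 2.49 for *Cdkn1a*, 1.73 for *Jun*, 1.61 for *Mcm3*, 1.58 for *Rrm2*, 1.42 for *Fosl2*, 1.39 for *Top2a*, 1.37 for *Cdk1* and 0.97 for *Pcna*. Sterol, stress and other positive genes had 4.28 for *Rnu3b4*, 2.69 for *Isyna1*, 2.12 for *Asns*, 2.04 for *Cyp3a41a*, 1.56 for *Hspb1*, 1.04 for *Fdps*, 0.99 for *Idi1*, 0.79 for *Cyp51* and 0.82 for *Pdia6*. Negative differences in drug and bile acid metabolism were -1.94 for *Cyp3a59*, -1.71 for *Cyp2b10*, -1.53 for *Cyp8b1*, -1.48 for *Ces2a*, -1.39 for *Cyp3a25*, -1.02 for *Akr1d1*, -0.97 for *Cyp2e1* and -0.68 for *Abcc3*. In nitrogen and methyl metabolism they were -1.75 for *Inmt*, -1.31 for *Cth*, -1.20 for *Gnmt*, -1.10 for *Sardh*, -1.09 for *Bhmt*, -1.05 for *Asl*, -0.90 for *Hal*, -0.75 for *Mat1a* and -1.27 for *Afmid*. The other negative differences were -3.46 for *Meg3*, -3.01 for *Mup19*, -2.72 for *Hamp2*, -2.49 for *Gm13775*, -2.17 for *Cyp4a10*, -2.17 for *Dlec1*, -2.15 for *Mup6*, -2.13 for *Car3*, -2.06 for *Etnppl*, -2.05 for *Upp2*, -2.05 for *Per3*, -1.68 for *Tef*, -1.55 for *Acaa1b* and -1.09 for *Ehhadh*.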

How the results depend on the processing

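The 165 higher, 124 lower and 26 opposite calls were recomputed under every alternative. With DESeq2, 372 genes were higher and 350 lower, with size factors 200 and with TMM 210 were lower, and edgeR gave 151 and 184. All 124 lower genes stayed called with both scalings, against 132 and 129 of the 165 higher genes. Without the variance trend the counts were 45, 25 and 14, and with Benjamini-Yekutieli adjustment 31, 25 and 9. At a threshold over 1, 53 were lower and 9 opposite. Opposite calls numbered 16 with a pseudocount of 5 and 43 without a fold threshold. With 1 library left out, higher counts ranged from 69 to 295, lower from 67 to 152 and opposite from 17 to 35. The replicate block gave 144, 112 and 29 calls. Deviations of same-numbered libraries had correlations of -0.106 to 0.0715, 0 of 18 over 0.1. These values show no pairing by number, but with 3 libraries per group they cannot exclude a shared batch. Of the 76 named calls, 71 stayed with edgeR, 72 with DESeq2, 73 with either scaling, 56 without Lcn2-/- CCl4 replicate 2, and 48 with each library left out in turn. The 20 lost without Lcn2-/- CCl4 replicate 2, the library with little *Xist*, were *Gvin1*, *Cxcl1*, *Lyz2*, *Irf7*, *Lgals3*, *Top2a*, *Cdk1*, *Itgb2*, *Il33*, *Idi1*, *Il18bp*, *Pdia6*, *Cyp51*, *Mat1a*, *Cyp2e1*, *Ehhadh*, *Bhmt*, *Per3*, *Gm13775* and *Mup19*, at adjusted p of 0.0504 to 0.111. No difference changed its sign. Depth limits low genes, since 3 reads were up to 0.396 CPM, and intervals of counting error alone were not used. In each fit with 1 library left out, a group kept 2 libraries and the spread was pooled over the groups.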

Other observations

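Enzymes of methionine and one-carbon metabolism, a list chosen after their values were seen, held some of the negative calls. Methionine is turned into S-adenosylmethionine, the methyl donor of the cell, whose use and recycling are a main task of hepatocytes. Of 22 genes of this pathway, 9 were called negative and 0 positive, against 0.816% and 1.09% of all genes. Of the 22, 19 were below 0, and the median difference was -0.47, or -0.56 with size factors and -0.57 with TMM. The median genotype difference was 0.22 on oil, where 2 of the 22 were called, against 4.73% of all genes. It was -0.13 on CCl4, where 6 were called, each lower in Lcn2-/-, against 0.204% of all genes called lower on CCl4. Without Lcn2-/- CCl4 replicate 2, 5 of the 9 were still called negative. The called genes were *Ahcy*, *Bhmt*, *Cth*, *Dmgdh*, *Gamt*, *Gnmt*, *Inmt*, *Mat1a* and *Sardh*.

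On oil, *Gnmt* was at 1523, 1555 and 1409.6 CPM in the wild type and 2005, 2378 and 1908 CPM in the Lcn2-/- livers. On CCl4, *Gnmt* was at 942, 1302 and 1342 CPM in the wild type and 752, 777 and 631 CPM in the Lcn2-/- livers. *Gnmt*, the methyltransferase that consumes surplus S-adenosylmethionine, had all Lcn2-/- CCl4 libraries below every other library. Its difference was -1.20 (standard error 0.19, adjusted p = 0.00316, limma). *Sardh*, the sarcosine dehydrogenase that takes up the product of *Gnmt*, was at 393 to 402 CPM on oil and 371 to 413 CPM on CCl4 in the wild type, and at 448 to 525 and 219 to 226 CPM in the Lcn2-/- livers. Its difference was -1.10 (standard error 0.12, adjusted p = 0.000208, limma), and on CCl4 the genotypes differed by -0.81 (adjusted p = 7.22e-05, limma). *Cth*, the last enzyme on the way to cysteine, differed on CCl4 by -1.01 (adjusted p = 0.0149, limma), and *Bhmt*, which remakes methionine with betaine, by -0.91 (adjusted p = 0.0149, limma). *Mat1a*, the synthase of the methyl donor in hepatocytes, had a difference of -0.75 (adjusted p = 0.0462, limma), lost in 10 of 12 fits without a library, and that of *Bhmt*, -1.09 (adjusted p = 0.0193, limma), was lost in 5 of 12. *Inmt*, an amine methyltransferase, rose in the wild type (1.24), its response in Lcn2-/- was -0.51, and the difference was -1.75 (standard error 0.22, adjusted p = 0.000648, limma).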
